A study of Bos taurus with 2 samples.

Results

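CN-64-5p is a 22-nt small RNA of the bovine mammary gland that had no entry in the miRNA database used, and 125 further CN miRNAs carry nearly the same sequence. The CN miRNAs are the 505 unique mature sequences that the study predicted from its own libraries and named itself. A CN miRNA was counted as related to CN-64-5p when its listed sequence held bases 3 to 14 of CN-64-5p, without a gap and at any offset, with at most 2 mismatches. This gave 126 miRNAs, CN-64-5p included, of the 505 CN miRNAs and of the 884 unique miRNAs of all kinds. The stretch of 12 bases was present without a mismatch in 44 of them, with 1 mismatch in 61 and with 2 in 21. A further condition of the rule, which leaves out a stretch of chromosome 21, removed none. The rule uses sequence alone, but CN-64-5p, on which it is built, was the CN miRNA with most reads in both libraries.

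Small RNA was sequenced from the mammary gland of 2 multiparous Holstein cows. The lactation library came from a 6-year-old cow 2 months into milk production. The non-lactation library came from a 4-year-old cow that was non-lactating and not pregnant. With 1 library per condition, lactation and non-lactation below stand for these 2 libraries, there is no replicate check, and age, animal and condition cannot be told apart. The listed sequences of the 883 unique miRNAs with a value in both libraries held 5745936 reads in lactation and 7879028 in non-lactation.

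MicroRNAs are cut from the stem of a hairpin precursor, and the names end in 5p or 3p for the arm of the hairpin that the mature strand came from. The mature strand guides an Argonaute protein to messenger RNAs, and bases 2 to 8, the seed, contribute most to the choice of targets. A shift of the first base by 1 position, or a substitution within the seed, changes the seed and with it the set of possible targets. IsomiRs are the length and sequence variants that are read from a single hairpin arm. Reads of near-identical small RNAs from separate positions in a genome can be hard to assign, and the split of reads between the miRNAs described here is therefore uncertain.

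The sequences that carry the results are given 5′ to 3′ with the seed in capitals. The first is CN-64-5p, followed by the 4 others that held no substitution against it and differed only in their ends, and then the 8 that had its length and differed from it by 1 base.
CN-64-5p: uGAAAAGUucguucggguuuuu
CN-196-5p: gAAAAGUUcguucggguuuuuu
CN-57-5p: aAAAGUUCguucggguuuuuu
CN-100-1-5p: aAAAGUUCguucggguuuuuca
CN-53-5p: aAAAGUUCguucggguuuuucg
CN-325-5p: uAAAAAGUucguucggguuuuu
CN-106-1-5p: uCAAAAGUucguucggguuuuu
CN-183-5p: uGAAAAGUuaguucggguuuuu
CN-410-5p: uGAAAAGUuuguucggguuuuu
CN-412-5p: uGAAAAGUugguucggguuuuu
CN-436-5p: uGAAAAGUucauucggguuuuu
CN-397-5p: uGAAAAGUucguuaggguuuuu
CN-233-5p: uGAAAAGUucguucagguuuuu

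The stretch used to find the related miRNAs is shown in capitals within CN-64-5p, as ugAAAAGUUCGUUCggguuuuu. No known bovine miRNA of the 283 and no PC miRNA of the 96 met the same rule. PC miRNAs are those that the study matched to a miRNA of another mammal. The nearest known miRNA had 3 mismatches to the stretch and the nearest PC miRNA 4.

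CN-64-5p was by far the most abundant of the related miRNAs. It was listed with 47518 reads in lactation and 169070 reads in non-lactation, which placed it 17th and 9th among the 884 unique miRNAs and first among the CN miRNAs in both. It held 96.2% of the reads of the related miRNAs in lactation and 97.9% in non-lactation. In reads per 1000000 clean reads (RPM), its level was 3971 in lactation and 10588 in non-lactation. The lactation level was thus 2.67-fold lower, with an exact 95% interval of 2.64 to 2.69 that, like all intervals here, covers counting error only. In whole tissue, fewer cells of a type and less RNA per cell cannot be told apart. With its isomiRs, CN-64-5p reached 70094 reads of 236 kinds in lactation and 222633 reads of 221 kinds in non-lactation, and the lactation level was 2.38-fold lower. The listed sequence made up 67.8% and 75.9% of those reads. Its hairpin is at chr1:3473984-3474069 on the minus strand of the BTA 4.0 build, and overlap with genes was not analysed here.

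The related miRNAs divided the CN reads of the 2 libraries unevenly. They took 49.0% of all CN reads in lactation (49414 of 100876) and 85.2% in non-lactation (172679 of 202559). The other 379 CN miRNAs summed to 4301 RPM in lactation and 1871 RPM in non-lactation, a ratio of 2.30. One of them, CN-263-3p, has the sequence, position and counts of the known mir-200b-3p, with 28517 and 6598 reads. Without it the ratio of the other 378 was 1.32, with an interval of 1.29 to 1.34, and the related miRNAs held 68.3% and 88.1% of the CN reads. Without CN-64-5p, the related miRNAs held 1896 reads in lactation and 3609 in non-lactation. Their summed level was 158 RPM against 226 RPM, a ratio of 0.701 with an interval of 0.663 to 0.741. CN-196-5p alone gave 475 and 1439 of these reads, and without it the ratio was 0.874. With all isomiR reads, the ratio of the related miRNAs without CN-64-5p was 0.850.

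**Figure D1:**
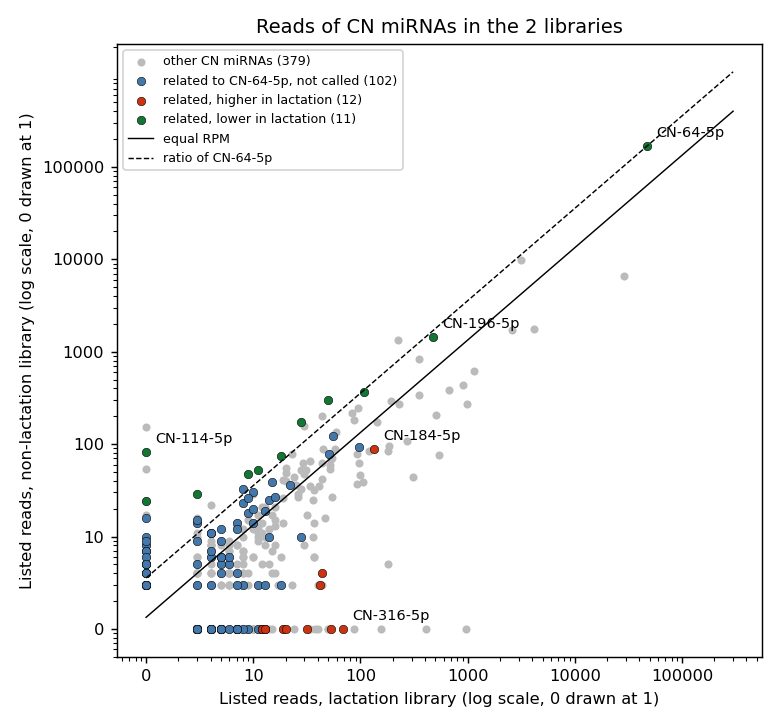
Listed reads of each CN miRNA in lactation (x axis, log scale) and the non-lactation library (y axis, log scale), with 0 drawn at 1. Points coloured red (12), green (11) and blue (102) are related to CN-64-5p and were called higher, called lower or not called in lactation, grey points are the 379 other CN miRNAs, the solid line marks equal RPM, and CN-64-5p lies far above all other related miRNAs in both libraries.

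Most related miRNAs were rare and many were listed in a single library. Of the 126, 55 were listed in both libraries, 47 in lactation only and 23 in non-lactation only. Of all 883 unique miRNAs, 23.3% were listed in lactation only and 15.2% in non-lactation only, and of the 379 other CN miRNAs 112 and 84. CN-137-5p had 25 reads in lactation and an empty field for the other, so that 125 could be compared. No related miRNA was listed with fewer than 3 reads, and a listed 0 was treated as 3 reads when a ratio was formed, which gives a bound. The 47 in lactation only had a median of 5 reads and at most 69, and 37 of them had 10 reads or fewer. The 23 in non-lactation only had a median of 5 and at most 83, and 20 had 10 or fewer. At such depth, absence from a library could not be shown for most of them.

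Fisher's exact test of each miRNA against the clean reads of both libraries, two-sided and with Bonferroni adjustment over 883 unique miRNAs, called 12 of the 125 related miRNAs higher and 11 lower in lactation. Over all 883 miRNAs tested, 17.4% were called higher and 10.9% lower, beside 9.6% and 8.8% of the related miRNAs. The share called among the related miRNAs was thus under that of all miRNAs in both directions. Among the other CN miRNAs, 45 of 379 (11.9%) were called higher and 11 (2.90%) lower. The median of summed reads was 10 for the related miRNAs, 8 for the other CN miRNAs and 17 for all. The shares are thus not matched for depth. With all isomiR reads in place of the listed ones, 26 of 124 related miRNAs were called higher and 13 lower, beside 24.3% and 13.5% of all miRNAs. With trimmed-mean (TMM) scaling of the libraries, 7 of 125 were called higher and 13 lower, beside 14.3% and 12.9%. With Benjamini-Hochberg adjustment 35 were called higher and 19 lower, beside 30.4% and 16.1%. The median log2 ratio of the 65 related miRNAs with at least 10 summed reads was -0.34, with 27 above 0 and 38 below. The sign of this median was not stable. It was 0.15 with all isomiR reads. Without a minimum of summed reads, over the related miRNAs with more than 3 reads in a library, it was 0.28. Over the related miRNAs without a mismatch in the selecting stretch it was 0.48. Over all 540 unique miRNAs with at least 10 reads the median was 0.30, and over the 176 other CN miRNAs it was 0.63. By size alone, 37 related miRNAs reached 20 summed reads, of which 9 were higher by 2-fold or more and 15 lower by 2-fold or more in lactation. Of all 421 miRNAs at that depth, 29.7% were at least 2-fold higher and 20% at least 2-fold lower.

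The miRNAs called lower included the most abundant ones. CN-196-5p, the sequence of CN-64-5p from its second base with an added U at the 3′ end, had 475 reads in lactation and 1439 in non-lactation. Its ratio of 0.441 had an interval of 0.396 to 0.489. CN-145-5p, which shares the first 20 bases of CN-64-5p, had 108 and 370 reads. CN-100-1-5p, which starts at base 3, had 50 and 302 reads and was 4.53-fold lower in lactation. CN-57-5p, which also starts at base 3, had 56 and 123 reads, a ratio of 0.608, and was not called. The 3 called miRNAs were low in lactation with counts well over the floor in both libraries.

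The rest of those called lower had smaller counts. CN-325-5p had 28 reads in lactation and 174 in non-lactation, CN-436-5p had 18 and 75, and CN-42-5p had 11 and 52. CN-487-5p had 9 and 47 reads, and CN-238-5p had 3 and 29. CN-114-5p was listed at 0 in lactation and with 83 reads in non-lactation. As an entry it was at least 20.7-fold lower against 3 reads, and its exact interval had an upper limit of 0.0607 for the ratio. The same listed sequence had 69 and 0 reads as CN-316-5p, and the pair together had a ratio of 1.11. CN-235-5p was listed at 0 and 24 reads, and CN-187-5p, with the same listed sequence, had 10 and 30. Bonferroni-adjusted p-values from Fisher's exact test were 0.0446 for CN-238-5p, 0.0289 for CN-487-5p and 0.0275 for CN-42-5p, so that these calls lay close to the threshold of 0.05.

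Of the 12 called higher, CN-184-5p was the most abundant, with 134 reads in lactation and 88 in non-lactation. Its ratio was 2.03 with an interval of 1.54 to 2.69. CN-342-5p had 44 and 4 reads, and CN-409-5p had 42 and 3. The isomiR reads of CN-409-5p were 96 in lactation and 134 in non-lactation, so that its ratio above 1 rested on the listed sequence. CN-316-5p with 69 reads, CN-53-5p with 53 and CN-410-5p with 32 were listed at 0 in non-lactation. Against 3 reads in that library, they were at least 30.7-fold, 23.6-fold and 14.2-fold higher, and the lower limits of their exact intervals were ratios of 24.3, 18.5 and 10.9. The remaining 6 were likewise listed at 0 there, with 20 reads for CN-454-5p, 19 for CN-390-5p, 13 each for CN-214-5p and CN-484-5p, and 12 each for CN-115-5p and CN-404-5p. In all, 9 of the 12 calls rested on a 0 in non-lactation. Among these, CN-316-5p has the same listed sequence as CN-114-5p, which had 0 and 83 reads. With entries of identical sequence merged, 11 related miRNAs were called higher and 10 lower.

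**Figure D2:**
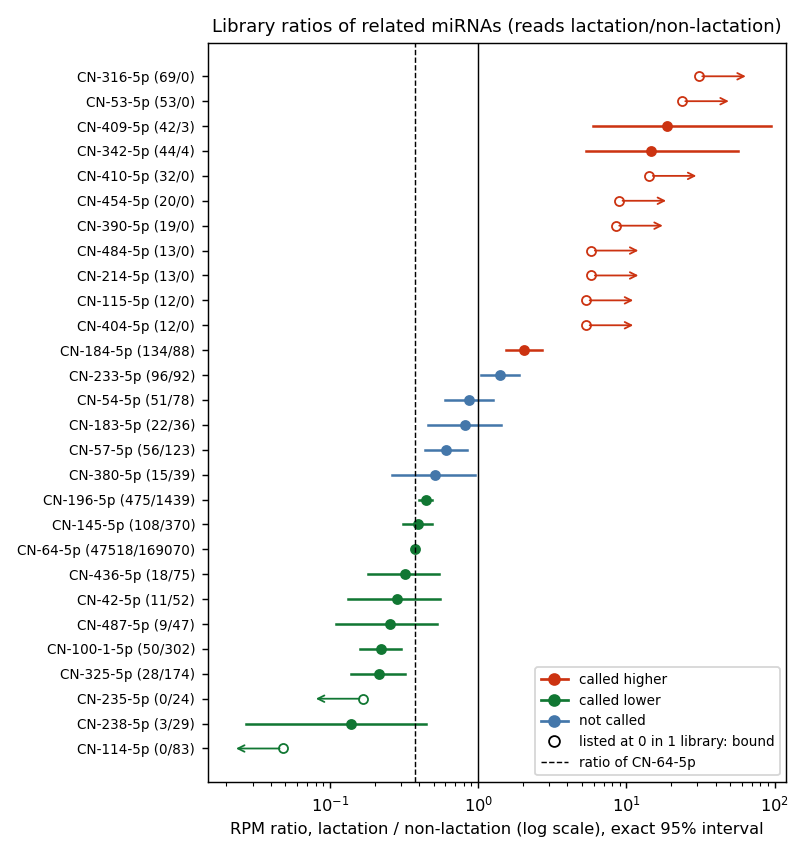
RPM ratio of the lactation to the non-lactation library (x axis, log scale) for the 28 related miRNAs that were called or had at least 50 summed reads, with reads of both libraries beside each name. Bars are exact 95% intervals, open circles with arrows are bounds where a library was listed at 0, the dashed line is the ratio of CN-64-5p, 0.375, and CN-145-5p, CN-436-5p and CN-196-5p lie nearest to it.

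Each related miRNA was also compared with CN-64-5p itself, which needs no library total. Fisher's exact test of its reads against those of CN-64-5p, with Bonferroni adjustment over 882 miRNAs, found 28 with a higher lactation ratio than CN-64-5p and 1, CN-114-5p, with a lower one. The other 95 did not pass. The reach of this test was unequal in the 2 directions, because most reads of CN-64-5p were in non-lactation. CN-38-5p, with 7 and 0 reads, passed as higher, whereas CN-235-5p, with 0 and 24, did not pass as lower. The numbers found higher and lower therefore cannot be set against each other. CN-114-5p shares its listed sequence with CN-316-5p, as described below, and with entries of identical sequence merged no related miRNA had a lower ratio. Over all 882 miRNAs tested, 36.4% had a higher ratio and 2.38% a lower one. CN-196-5p, CN-145-5p, CN-100-1-5p and CN-325-5p, the most abundant of those called lower, did not differ from CN-64-5p by this test. CN-184-5p, with an adjusted p of 6.5e-32 from Fisher's exact test, and CN-316-5p, with 3.2e-43, both had a higher ratio than it.

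The 8 miRNAs at the length of CN-64-5p and 1 base from it did not share its ratio throughout. Each of the 8 also had 1 mismatch to its own hairpin, so that the assignment of its reads to that hairpin is uncertain. Substitutions are written with the base of CN-64-5p first, then its position counted from 1 at the 5′ end of CN-64-5p, then the base of the other miRNA. CN-233-5p (G15A) had 96 reads in lactation and 92 in non-lactation. Relative to 10000 reads of CN-64-5p, this was 20.2 reads against 5.44, and it was the most abundant of the 8 in lactation. CN-325-5p (G2A), the most abundant of the 8 in non-lactation, had 28 and 174 reads, or 5.89 and 10.3 per 10000.

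The remaining 6 are spread over 4 positions. CN-410-5p (C10U) had 32 reads in lactation and was listed at 0 in the other, while CN-183-5p (C10A) had 22 and 36 reads and CN-412-5p (C10G) had 10 and 20. CN-397-5p (C14A) had 28 and 10 reads, CN-436-5p (G11A) had 18 and 75, and CN-106-1-5p (G2C) had 8 and 33. CN-233-5p, CN-397-5p and CN-410-5p had a higher lactation ratio than CN-64-5p by Fisher's exact test with Bonferroni adjustment, with p of 2.2e-15, 1.4e-08 and 7.4e-19. The other 5 did not pass, including the pair at position 2. The 3 bases that replaced C at position 10 thus came with counts from 32 and 0 to 10 and 20.

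**Figure D3:**
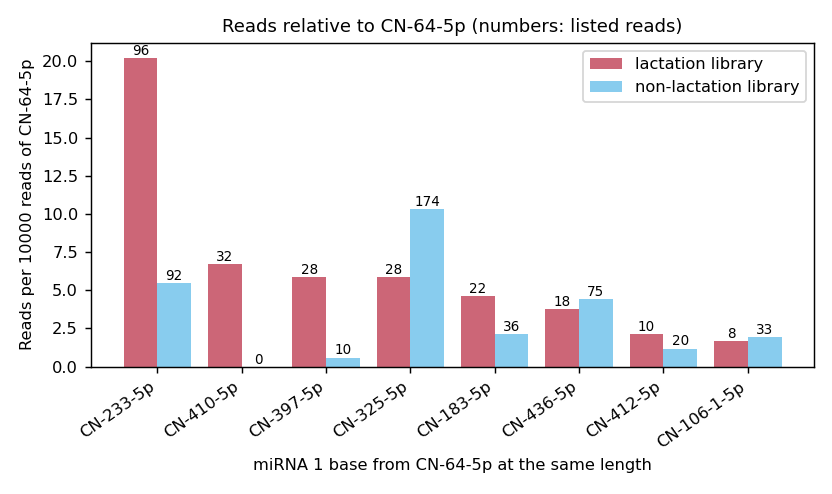
Reads per 10000 reads of CN-64-5p in the same library (y axis) for the 8 related miRNAs 1 base from CN-64-5p (x axis), with the listed reads above each bar. CN-233-5p reached 20.2 in lactation and CN-325-5p 10.3 in non-lactation, the highest bars of each.

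Across all related miRNAs, the substituted positions were not evenly used. Position 2 differed in 48 of the 83 miRNAs that covered it, position 15 in 30 of 126 and position 14 in 28 of 126. Position 9 was the same in all 126. The rule used positions 3 to 14, so that few changes there follow from the choice, while positions 15 to 20 were free to vary in all 126. In total 54 different substitutions were seen in the alignment without a gap, of which 10 occurred in at least 5 miRNAs. The commonest was G2A, in 45 miRNAs with 426 and 552 reads.

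Most miRNAs with G15A were listed in lactation only, whereas those with C14U were more often listed in non-lactation only than in lactation only. Of the 29 with G15A, 21 were listed in lactation only, 2 in non-lactation only and 6 in both, beside 23.3% and 15.2% of all miRNAs in a single library. They summed to 420 reads in lactation and 217 in non-lactation, a ratio of 2.58, or 2.96 without CN-184-5p. Fisher's exact test called 5 of them higher and none lower, beside the 17.4% and 10.9% of all miRNAs. Of the 27 with C14U, 6 were listed in lactation only, 14 in non-lactation only and 7 in both, beside the same 23.3% and 15.2%. These entries are not all separate sequences, since 24 of the 126 related miRNAs have a listed sequence that lies inside a longer one. With G15A, CN-282-5p lies inside CN-261-5p, which lies inside CN-439-5p, and CN-184-5p lies inside CN-38-5p. CN-15-5p, with 9 and 0 reads, lies inside CN-220-5p, with 0 and 6 reads.

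Those 27 miRNAs summed to 135 and 281 reads, a ratio of 0.641, or 0.910 without CN-114-5p. The value of 0.910 still counts CN-316-5p, which has the same listed sequence as CN-114-5p, with 69 and 0 reads. Together this pair held 69 and 83 reads, a ratio of 1.11, so that leaving out CN-114-5p alone splits a single sequence. Of the 12 miRNAs with C14U and at least 10 summed reads, 11 had a ratio below 1. These are not 11 separate sequences, and CN-114-5p is among them. CN-187-5p and CN-235-5p have the same listed sequence, and CN-244-1-5p holds it without its last U and lies inside CN-373-5p. The intervals of CN-24-5p, CN-158-5p, CN-191-1-5p, CN-244-1-5p, CN-320-5p and CN-331-5p include 1. CN-158-5p, with 5 and 12 reads, carried both changes. The 68 miRNAs that kept the bases of CN-64-5p at both positions, CN-64-5p left out, held 1299 and 3113 reads, a ratio of 0.557. This division by base was noticed in the data and was not tested, and most of these miRNAs had few reads.

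**Figure D4:**
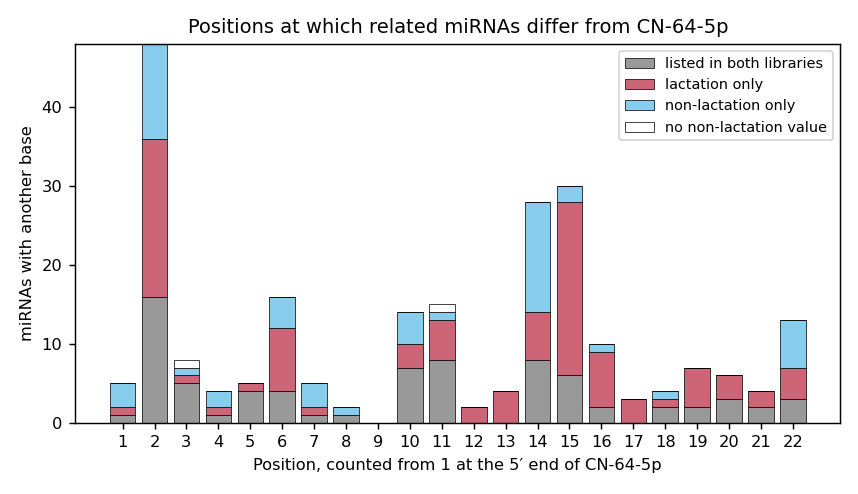
Number of related miRNAs that differ from CN-64-5p (y axis) at each position of CN-64-5p (x axis), stacked by the library in which they were listed. Position 9 has no bar, position 14 is split into 6 listed in lactation only, 14 in non-lactation only and 8 in both, and position 15 into 22, 2 and 6.

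The start of the mature sequence set the seed. Of the 126 miRNAs, 26 started at the first base of CN-64-5p, 55 at the second and 43 at the third, while 1 started a base before it and 1 started 2 bases before it. Positions are those of the alignment without a gap, in which an added or missing base counts as a shifted start. CN-95-5p, placed a base before, begins with the UGAAAA of CN-64-5p and holds 1 more A in that run. CN-130-5p, placed at the second base, also begins with UG and holds 1 A fewer. The 26 that shared the first position of CN-64-5p held 97.1% of the related reads in lactation and 98.4% in non-lactation, nearly all from CN-64-5p. Those starting at the second base held 968 and 1886 reads, a ratio of 0.685. Those starting at the third held 474 and 772, a ratio of 0.819. A total of 26 different seeds resulted, 10 of which were held by 1 miRNA.

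The most common seed was AAAAGUU, in 33 miRNAs with 817 and 1681 reads, most of them from CN-196-5p. AAAGUUC was in 28 miRNAs with 361 and 568 reads. GAAAAGU, the seed of CN-64-5p, was in 14. AAAAAGU, the seed of CN-325-5p, was in 9 with 60 and 256 reads, and none of the 5 of these with at least 10 summed reads had a ratio above 1. Of these 5, CN-187-5p and CN-235-5p have the same listed sequence, and CN-244-1-5p holds it without its last U. CN-204-5p and CN-244-1-5p had ratios of 0.953 and 0.890, with intervals that include 1.

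Features that the rule did not use also set the related miRNAs apart from the other CN miRNAs in description. All 126 came from the 5p arm, against 153 of the other 379 (40.4%). Their length ran from 18 to 23 nt, and 37 had 20 nt, 42 had 21 nt and 36 had 22 nt. The listed sequence matched its own hairpin exactly in 53, had 1 mismatch to it in 71 and more in 2. A mismatch of any number was thus present in 57.9% of the related miRNAs, against 36.9% of the other CN miRNAs. In 19 of the 71 it was at the first base. CN-64-5p itself matched its hairpin exactly, while CN-196-5p, CN-145-5p, CN-100-1-5p, CN-325-5p and CN-233-5p each had 1 mismatch. The listed sequence of 24 related miRNAs was also held exactly by the hairpin of another, and that of CN-184-5p by 4 others.

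A pair of short motifs that lie outside the mature strand of CN-64-5p recurred in some of the hairpins. Hairpins are shown for CN-64-5p and for CN-184-5p, the most abundant of those called higher, with the mature strand in capitals.
CN-64-5p: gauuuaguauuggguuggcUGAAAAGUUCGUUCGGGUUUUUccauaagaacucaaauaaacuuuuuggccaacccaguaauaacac
CN-184-5p: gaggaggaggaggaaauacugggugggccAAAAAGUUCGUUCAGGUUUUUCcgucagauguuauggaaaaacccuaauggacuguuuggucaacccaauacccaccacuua
The hairpin of CN-64-5p has GUUGGC just before the mature strand and its reverse complement, GCCAAC, in the other arm. Both motifs were read off this hairpin and then searched on the strand of the hairpin as given. GUUGGC was within 12 nt before the mature strand in 52 related miRNAs (41.3%) and in 5 of the other CN miRNAs (1.32%). GCCAAC followed the mature strand in 56 (44.4%) and in 8 (2.11%). These counts by place depend on the arm, and all 126 related miRNAs were 5p, against 40.4% of the other CN miRNAs. Anywhere in the hairpin, GUUGGC was in 53 related miRNAs and in 38 of the other CN miRNAs. GCCAAC was anywhere in the hairpin in 56 and in 20, so that the difference was smaller for each motif without the condition on place. Both motifs were in the hairpin in 21 (16.7%) and in 8 (2.11%), and the hairpin of CN-184-5p had neither.

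The related miRNAs came from many places in the genome. On the BTA 4.0 build 111 were on 29 chromosomes and 15 on unplaced contigs, with at most 8 on 1 chromosome, 84 on the plus strand and 42 on the minus strand. Only 2 pairs lay within 10 kb of each other, and both overlapped. On opposite strands were CN-490-5p at chr1:129604324-129604429 on the plus strand, with 5 and 6 reads, and CN-491-5p at chr1:129604333-129604422 on the minus strand, with 9 and 26. CN-100-1-5p, CN-106-1-5p, CN-191-1-5p and CN-244-1-5p each had a further position. That of CN-244-1-5p, at chr9:66553692-66553790 on the minus strand, overlapped CN-373-5p at chr9:66553690-66553788 on the same strand. CN-373-5p, with 0 and 16 reads, has the sequence of CN-244-1-5p, with 4 and 6 reads, extended at the 5′ end.

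For 3 sequences, 2 entries from separate positions were listed. CN-114-5p at chr17:13485472-13485582 and CN-316-5p at chr24:59481455-59481525 had the sequence aAUAAGUUcguuuggguuuuu in common, yet CN-114-5p was listed with 0 and 83 reads and CN-316-5p with 69 and 0. Together they held 69 reads in lactation and 83 in non-lactation, a ratio of 1.11 with an interval of 0.794 to 1.55. Each entry was called, in opposite directions, while their shared sequence was present in both libraries at levels that did not differ beyond counting error. CN-187-5p and CN-235-5p, with uAAAAAGUucguuuggguuuu, together held 10 and 54 reads, a ratio of 0.247. CN-44-5p and CN-259-5p together held 5 and 8.

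Reads of all isomiRs were compared with those of the listed sequence, which the deposited tables describe as the most abundant. The 2 isomiR fields of the CN table were read with their headings exchanged. If the listed sequence is the most abundant of its kinds, the mean number of reads per kind cannot exceed its own reads. The mean did exceed them in 17 of 101 related miRNAs (16.8%) in lactation and in 9 of 77 (11.7%) in non-lactation, 22 miRNAs in all. Among the other CN miRNAs this was 3.10% and 3.42%, among the known miRNAs 1.51% and 1.88%, and among the PC miRNAs 0 in both. CN-129-5p was listed with 13 and 19 reads and had 187 and 575 isomiR reads, each of 8 kinds. CN-191-1-5p was listed with 8 and 23 reads and had 12 and 344. CN-42-5p had 120 and 354 isomiR reads beside 11 and 52 listed, and CN-235-5p 251 beside 24 in non-lactation.

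The share of the listed sequence varied among the other abundant ones. All 134 and 88 reads of CN-184-5p were of 1 kind. CN-100-1-5p had 53 and 321 isomiR reads beside 50 and 302 listed. In contrast, CN-53-5p had 314 isomiR reads of 21 kinds in lactation beside 53 listed, and none in non-lactation, so that both counts put it in lactation only. CN-16-5p had 151 and 113 isomiR reads beside 8 and 3 listed.

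**Figure D5:**
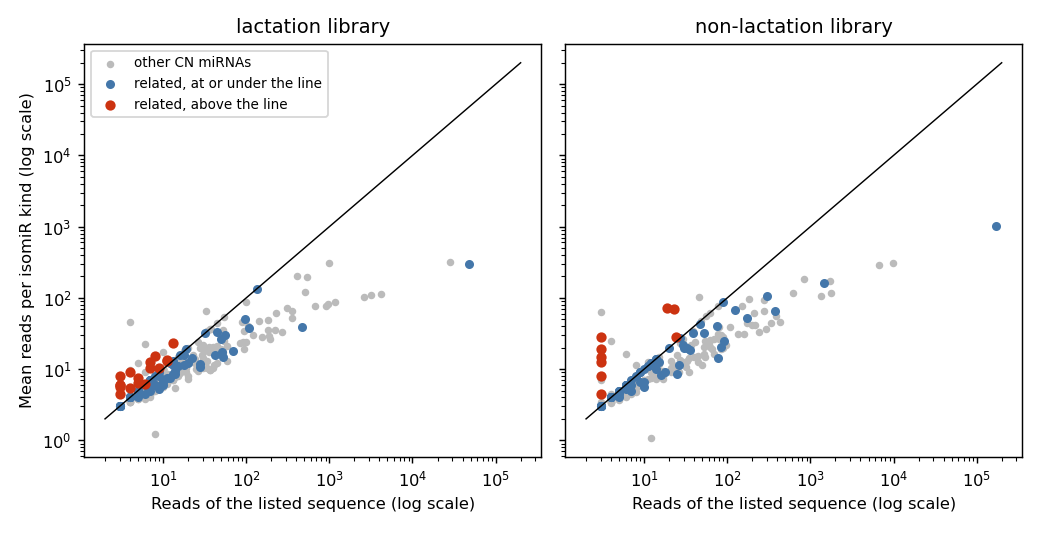
Mean reads per isomiR kind (y axis, log scale) against the reads of the listed sequence (x axis, log scale) in the lactation and non-lactation libraries, for the related miRNAs (red above the line of equality, blue at or under it) and the other CN miRNAs (grey). In the lactation library 17 and in non-lactation 9 related miRNAs lie above the line, all with 24 listed reads or fewer, and CN-64-5p lies far under it.

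A set of 33 other CN miRNAs held the reverse complement of the selecting stretch with at most 2 mismatches, and all 33 came from the 3p arm. Of these, 16 were listed in both libraries, 11 in lactation only and 6 in non-lactation only, beside 23.3% and 15.2% of all miRNAs in a single library. They summed to 1153 reads in lactation and 490 in non-lactation, a ratio of 3.14 with an interval of 2.82 to 3.50. Fisher's exact test called 7 of them higher and none lower, beside the 17.4% and 10.9% of all miRNAs. CN-439-3p had 506 and 207 reads, while CN-439-5p, a related miRNA from the other arm of the same hairpin, had 3 and 0. CN-125-1-3p had 310 and 44 reads, and without both of these abundant ones the ratio was 1.88. CN-490-3p with 52 and 79 reads and CN-482-3p with 20 and 55 were not called, CN-201-3p with 54 and 27 and CN-449-3p with 44 and 3 were called higher. The isomiR reads of CN-201-3p were 54 in lactation and 116 in non-lactation, so that its ratio above 1 rested on the listed sequence.

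Just inside and just outside the rule, only the CN miRNAs with most reads are named here, and the others had fewer. With 2 mismatches to the selecting stretch, CN-54-5p had 51 and 78 reads, and CN-114-5p and CN-316-5p are given above. With 3 mismatches, CN-462-5p had 92 and 79 reads, CN-148-5p 50 and 0, and CN-59-5p 12 and 11.

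Known miRNAs that mark cell types of the gland differed between the 2 libraries. The 7 epithelial miRNAs found, among them mir-141-3p and mir-200c-3p, summed to 15169 RPM in lactation and 2797 RPM in non-lactation, with 6 called higher and 1, mir-205-5p, lower. The 3 of striated muscle summed to 4480 and 696 RPM, each with a ratio above 1. The 4 of stroma summed to 8608 and 14455 RPM, though 3 of them had a ratio above 1 and the lower sum came from mir-199a-3p alone, with 2100 and 9968 RPM. The 5 of blood summed to 128 and 107 RPM. Of these, mir-451-5p and mir-486-5p had a ratio above 1 and mir-223-3p and mir-142-5p below, while mir-144-3p had 3 and 0 reads. The part of these cell types in the differences above was not tested.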

How the data were processed

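Mammary gland RNA of 1 lactating cow and 1 non-lactating cow was sequenced. The authors trimmed adaptors, discarded reads of low quality or from other RNA kinds, and mapped the remainder with ACGT101-miR to miRBase release 17 and the BTA 4.0 genome. The labels name Trizol and a TruSeq kit, whereas the study's methods name a miRNeasy kit. The deposited counts are whole reads of each listed sequence, reads of all its isomiRs and kinds of isomiR, not normalized. In the CN table the headings of the last 2 were taken as exchanged, since the values headed as kinds reached the listed reads in 498 of 502 CN miRNAs and those headed as reads in 18. CN-263-3p carries the values of mir-200b-3p of the known table under exchanged headings. The rule for the related miRNAs, the lists and the alternatives were chosen with earlier results of these data known.

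RPM were computed per 1000000 clean reads as the study totals them. Ratios carry exact Clopper-Pearson 95% intervals conditional on the summed reads. A listed 0 was set to 3 reads, and no ratio is reported for a miRNA at or under 3 reads in both libraries. Fisher's exact tests were run in scipy 1.17.1 and adjusted by Bonferroni. Each test compares these 2 libraries, not the conditions. The script was tested on simulated data. Named miRNAs were those with at least 100 summed reads, those called by either test, those 1 base from CN-64-5p, those sharing a sequence or position, the 10 with most isomiR reads, and up to 3 to 6 of each neighbouring set. edgeR 4.0.16 and DESeq2 1.42.0 served only for scaling factors.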

Additional observations from a re-analysis of the deposited data

How the results depend on the processing

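The ratio of CN-64-5p stayed below 1 under every alternative run, from 0.281 without scaling to 0.420 with all isomiR reads. With TMM, with DESeq2 factors and without scaling the related miRNAs called higher in the lactation library numbered 7, 7 and 7, and the summed ratio without CN-64-5p was 0.585, 0.576 and 0.525. With raw reads as totals that ratio was 0.654. These scalings moved the median log2 ratio of all miRNAs by -0.26, -0.28, -0.42 and -0.10. With all isomiR reads 26 were called higher, 18 were at least 2-fold higher, 4 had a lower ratio than CN-64-5p, the summed ratio was 0.850 and the median log2 ratio turned to 0.15. Without a minimum of summed reads, over those with more than 3 reads in a library, that median was 0.28. At 50 summed reads it was -1.18. Keeping only related miRNAs without a mismatch, it was 0.48, the summed ratio was 0.626, 6 were called lower, 17 and 0 had a higher and a lower ratio than CN-64-5p, and 4 and 7 were at least 2-fold higher and lower. With 1 mismatch allowed, and with identical sequences merged, 0 had a lower ratio than CN-64-5p. Benjamini-Hochberg adjustment gave 35 called higher, 19 called lower, and 69 and 5 with a higher and a lower ratio than CN-64-5p. At 10 summed reads 20 were at least 2-fold higher, at 100 reads 1 higher and 5 lower, and with a 4-fold threshold 5 lower. In 2 settings chosen after seeing the data, the summed ratio was 0.874 without CN-196-5p and 0.577 over miRNAs listed in both libraries. The causes were not tested. The other 55 values kept their direction, and the counts among them stayed within 1.5-fold. No paired analysis was possible because each condition had 1 library.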
